A study of Canis lupus familiaris with 13 samples.

Results

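The late response of canine mammary tumors to IMAX was described from 6 of the 13 RNA-seq libraries of the series, namely 3 libraries taken before treatment and 3 taken late after it, each late library being compared with the one from the same tumor before treatment. IMAX is a nanoparticle made of a polyethylenimine–lithocholic acid conjugate, the cytotoxic drug paclitaxel, and a cyclic dinucleotide that activates STING, and it was injected into the tumor. The 3 tumors came from 2 pet dogs with naturally occurring mammary cancer, and no untreated control is among the samples. Another 3 libraries from the same tumors at 1 week after the second dose entered the statistical fit and were compared with the late ones. The 4 libraries from a soft tissue sarcoma of another dog were used only for comparison.

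Dog CL, an intact female Shih Tzu, carried a cranial mass (ductal carcinoma) and a caudal mass (complex carcinoma). Both masses received IMAX on 2 occasions, and their late biopsies date from 1 month after the last of these. Dog BM, a spayed female Great Pyrenees, was sampled in the middle of the fifth mammary gland on the left, 3 weeks after the second dose at its late time. The study's pathology describes a solid carcinoma before treatment and, late, a mass in which some regions were still carcinoma and others had features of osteosarcoma. The late group therefore holds 2 tumors of one host at 1 month and 1 tumor of another host at 3 weeks. Dog, tumor type, and time after the dose cannot be told apart in it, and each tumor gave 1 library per time point. The study states that the final biopsies of both dogs came from the mastectomies. Removal at surgery therefore cannot be told apart from the late time in any of the 3 tumors. Below, sets of 3 values are always given in the order CL caudal, CL cranial, BM.

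A tumor biopsy mixes malignant epithelial cells with fibroblasts, vessels, and infiltrating leukocytes. Activation of STING is known to induce interferons and chemokines that recruit leukocytes within days, whereas T cells, B cells, and antibody-secreting plasma cells belong to the slower, adaptive arm. Canine mammary carcinomas are built from luminal epithelial cells and, in complex tumors, myoepithelial cells, and some of them form bone or cartilage. Paclitaxel is known to stop cells in mitosis. In bulk RNA a lower level of a gene can come from fewer cells of a type or from less RNA per cell, and these cannot be told apart here.

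The deposited counts per library summed to 16259854 to 27707651 before treatment and to 11622444 to 29931125 late. Some libraries stood apart in composition. Protein-coding genes were split by the number of protein-coding neighbors within 1 Mb, taking genes with at least 21 as gene-dense and genes with at most 10 as gene-sparse. The median level of dense minus sparse genes, relative to the mean of the 9 mammary libraries, was -1.44, 0.31, and 0.38 log2 before treatment and -1.12, -0.36, and 0.84 late, against 0.31, 0.34, and 0.72 at 1 week. Thus both CL caudal libraries of the comparison shared a low level of gene-dense genes, and the late CL cranial library had moved toward it. In BM the level of long minus short genes was -0.12 before and -0.99 late. The part of this shift in the results was not tested, and the main gene lists are given below also after each tumor's trend with gene density and gene span had been subtracted. Before treatment the summed level of the simple and luminal epithelial genes was 963, 7715, and 5045 CPM and that of the basal genes 1729, 3072, and 10363 CPM, lowest in CL caudal for both. Late the sums were 1035, 5806, and 548 CPM and 1939, 2332, and 507 CPM, lowest in BM. CPM stands for counts of a gene scaled to a common library size, with the TMM factor of the library.

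**Figure D1:**
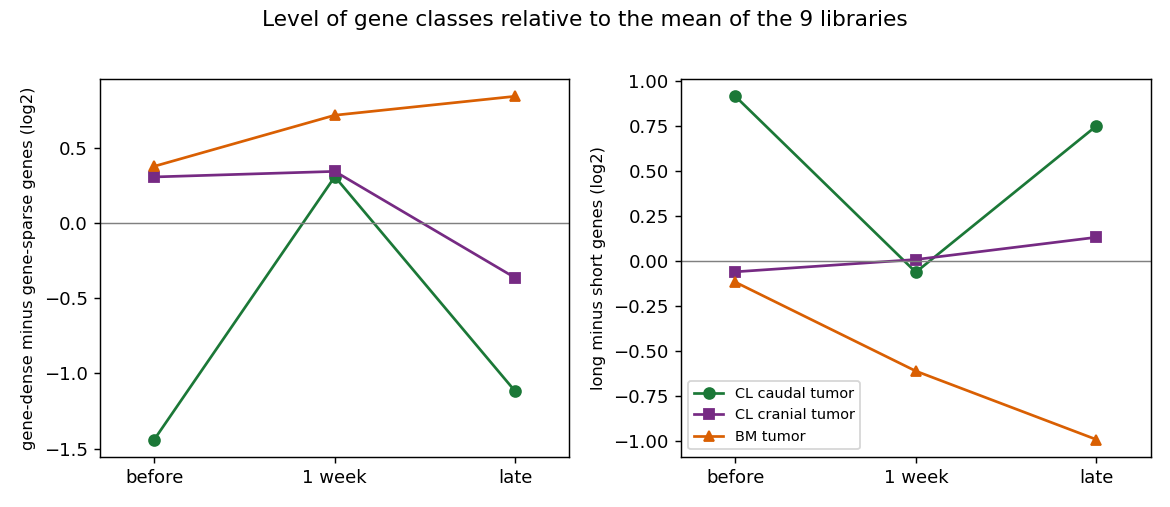
Level of gene-dense minus gene-sparse genes (left) and of long minus short genes (right), as medians in log2 relative to the mean of the 9 mammary libraries, before, at 1 week, and late, with 1 line per tumor. CL caudal starts at -1.44 and ends at -1.12 on the left, and BM ends at -0.99 on the right.

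Over all genes, edgeR's quasi-likelihood test with the tumor as a block called 0 of 19975 genes (0.0%) late against before at an adjusted p under 0.05, and the smallest adjusted p was 0.639. At an unadjusted p under 0.05, 561 genes (2.81%) were higher and 987 (4.94%) lower late, and DESeq2 with the same design called 44 genes higher (0.22%) and 142 lower (0.711%). The common biological coefficient of variation was 0.578, and the fit, which included the 1-week libraries, had 4 residual degrees of freedom. The values of single genes below are therefore descriptions of 3 tumors, and none of them passed the adjusted edgeR threshold. An exact sign-flip test over 3 tumors cannot give a p below 0.25.

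The tumors differed in how much they had changed. Genes higher by at least 1 log2 late made up 8.02% of the genes tested in CL caudal, 20.4% in CL cranial, and 21.7% in BM, and genes lower by as much made up 7.83%, 27.9%, and 29.2%. The median change of all genes was -0.005, -0.12, and -0.066 log2. In all 3 tumors 168 genes (0.841%) were higher by at least 1 log2 and 427 (2.14%) lower. These counts rested on the overlap of 3 unlike tumors. Without CL caudal they were 1172 and 2081, without CL cranial 359 and 808, and without BM 620 and 792. Genes whose 3 late libraries all lay above the 3 libraries before treatment numbered 806 (4.04%), and 775 (3.88%) lay below without overlap.

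The 5 genes with the smallest p among those higher in all 3 tumors included 4 genes of leukocytes. GZMA, the granzyme A protease of cytotoxic granules, was at 1.64, 1.33, and 1.4 CPM before and 37.2, 25.2, and 8.95 CPM late. All late libraries lay above all libraries before treatment, with a log2 fold change of 3.85 (SE 0.78). The adjusted edgeR p of GZMA was 0.639, the smallest over all genes. NKG7, RAC2, CD72, ID3, and PITPNM3, among others, had the same adjusted p, so it does not single out GZMA. NKG7, a membrane protein of cytotoxic granules, went from 0.944, 0.97, and 0.966 CPM to 9.34, 16.1, and 7.44 CPM, a log2 fold change of 3.41 (SE 0.74). Here too the groups did not overlap, and the 3 tumors had started from nearly the same level. RAC2, a signaling protein of blood cells, was at 1.51, 8.37, and 11.7 CPM before and 8.19, 25, and 97.7 CPM late. CD72, a coreceptor of B cells, was at 8.62, 5.31, and 2.52 CPM before and 32.9, 45.9, and 24.8 CPM late, again without overlap. The fifth gene, ID3, an inhibitor of basic helix-loop-helix factors that many cell types express, changed by 1.42, 2.22, and 3.24 log2 and overlapped between the groups. In the RefSeq annotation of UU_Cfam_GSD_1.0, GZMA lies on chromosome 2 from 41653466 to 41660635 and NKG7 on chromosome 1 from 106225044 to 106226395, and both are annotated as protein coding.

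Among genes lower in all 3 tumors, the smallest p-values belonged to genes that before treatment were lower in CL caudal than in the other tumors. PITPNM3, a membrane-associated phosphatidylinositol transfer protein, was at 0.441, 42.1, and 32.5 CPM before and 0.0719, 0.921, and 1.33 CPM late. PAPLN, the matrix glycoprotein papilin, was at 7.55, 24.1, and 115 CPM and then 3.31, 1.38, and 4.83 CPM, a log2 fold change of -3.47 (SE 0.72). MSI1, an RNA-binding protein of progenitor cells, had 0.503, 5.66, and 9.22 CPM before and 0.0719, 0.0921, and 0.0886 CPM late. ADGRD2, an orphan adhesion receptor, was at 0.126, 8.68, and 3.25 CPM before and had 0 counts in all 3 late libraries. The groups overlapped for PITPNM3 and did not for PAPLN, MSI1, and ADGRD2. C12H6orf132, an open reading frame named only by its position, changed by -1.06, -3.88, and -4.91 log2.

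**Figure D2:**
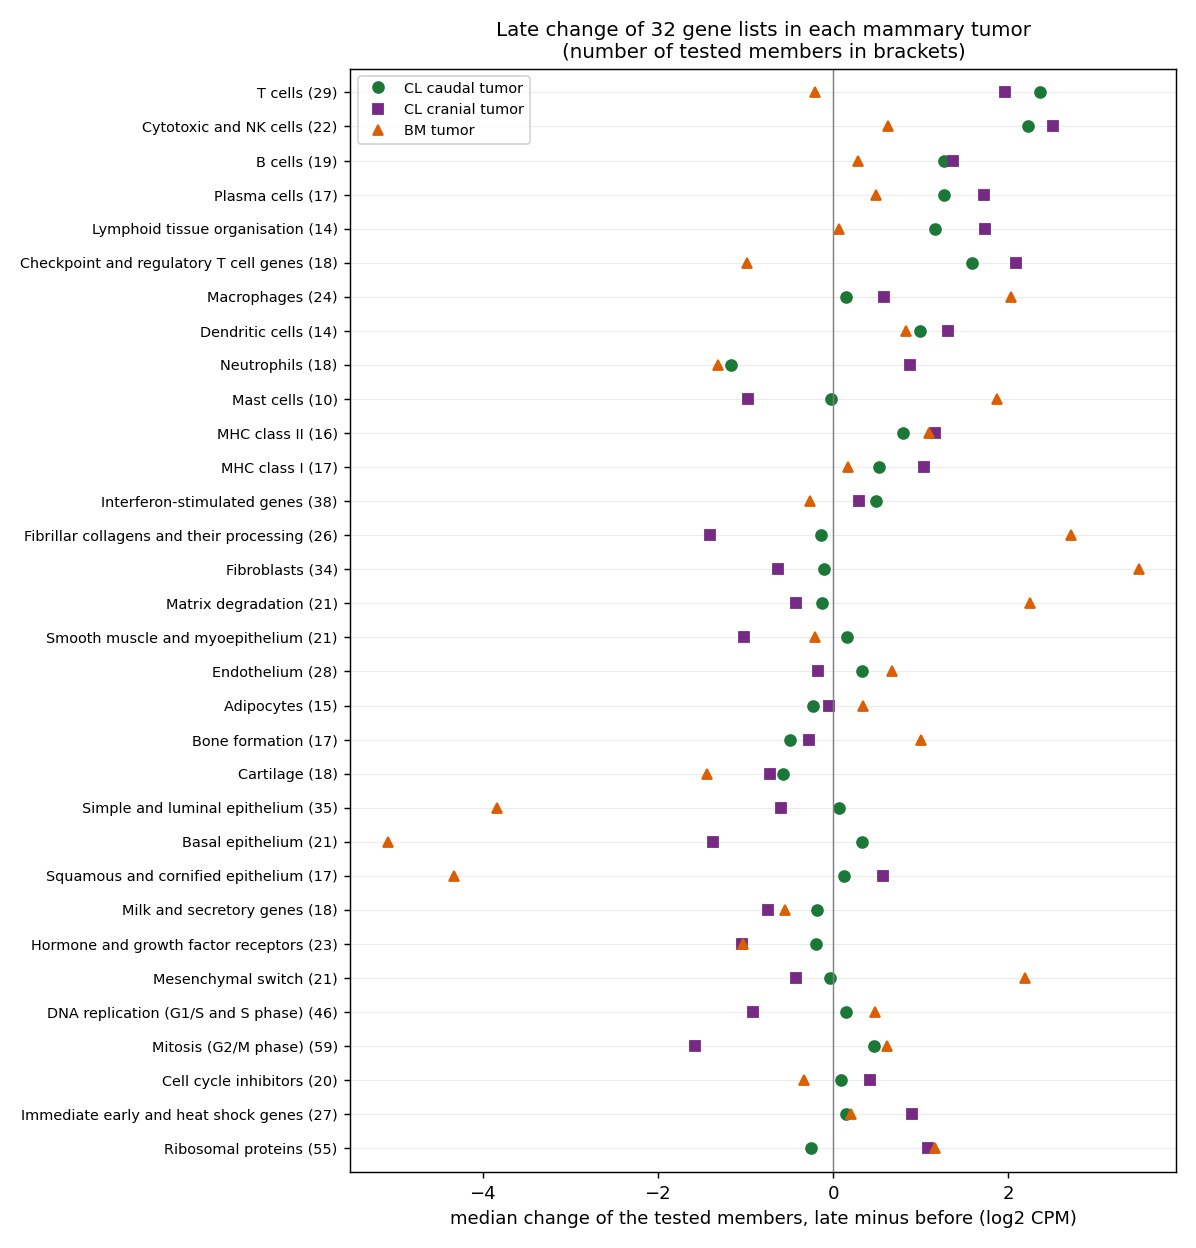
Median late minus before change (log2 CPM) of the tested members of 32 gene lists, with a circle for the CL caudal, a square for the CL cranial, and a triangle for the BM tumor. Lymphocyte lists lie right of 0 in both CL tumors, and the BM triangle stands apart from both CL symbols for fibroblasts (3.49) and basal epithelium (-5.08).

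Of the 36 gene lists examined, that of cytotoxic and NK cells had the largest share of members higher in all 3 tumors, 63.6%. Their median change was 2.23, 2.51, and 0.63 log2, a mean of 1.79 ± 1.02 (SD, n = 3 tumors), beside -0.005, -0.12, and -0.066 for all genes. Of 22 members tested, 14 were higher in all 3 tumors, against 14.3% of all genes, and 0 were lower in all 3, against 17.0%. The late libraries lay above those before treatment without overlap for 10 of the 22, beside 4.04% of all genes. DESeq2 called 8 of the 22 higher, beside 0.22% of all genes, and edgeR, after adjustment, 0. After subtraction of the trend with gene density and span the medians were 2.28, 2.6, and 0.64 log2.

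GZMK, the granzyme K protease typical of memory CD8 T cells, was at 3.52, 4.18, and 3.72 CPM before and 37.2, 58, and 14.1 CPM late, a log2 fold change of 3.12 (SE 0.77). GZMB, the main apoptosis-inducing granzyme, was at 1.2, 1.79, and 2.02 CPM before and 4.6, 12.5, and 9.57 CPM late, a log2 fold change of 2.28 (SE 0.6). Every late value of either gene exceeded every value before treatment. KLRD1, the CD94 subunit of NK receptors, was at 1.51, 0.612, and 0.907 CPM before and 6.9, 15.3, and 2.48 CPM late, without overlap. PRF1, the pore-forming perforin, stayed low, at 0.0629, 0.204, and 0.556 CPM before and 0.431, 1.57, and 1.68 CPM late, and its groups overlapped. EOMES, a transcription factor of cytotoxic lymphocytes, was at 0.189, 0.714, and 0.322 CPM before and 1.22, 3.87, and 0.576 CPM late, also with overlap. NCR1, the NK receptor NKp46, was too low to be tested, at 0.0629, 0.051, and 0.234 CPM before and 0.0719, 0.276, and 0.0443 CPM late.

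T cell genes were higher late in both tumors of dog CL and not in BM. The median change of the 29 T cell genes was 2.36, 1.97, and -0.21 log2, with 27, 27, and 13 of the 29 higher, where 48.2%, 46.7%, and 48.1% of all genes were. After the subtraction for gene density and span it was 2.48, 1.93, and -0.38 log2. The BM minus CL difference in late change was below 0 at an unadjusted edgeR p under 0.05 for 5 of the 29, beside 9.6% of all genes. CD3D, a signaling chain of the T cell receptor complex, was at 2.2, 2.4, and 3.22 CPM before and 17.2, 32.6, and 4.61 CPM late, a log2 fold change of 2.61 (SE 0.94). CD3G, another chain of the same complex, was at 6.23, 3.11, and 5.27 CPM before and 43.2, 31.4, and 4.74 CPM late. Thus CD3D did not overlap between the groups and CD3G did, since CD3G in BM was slightly lower late. CD3E, the epsilon chain, changed by 2.89, 1.48, and 0.87 log2. CD8A, the coreceptor of cytotoxic T cells, was at 0.252, 1.02, and 1.08 CPM before and 2.8, 5.25, and 2.3 CPM late, without overlap. CD4, the coreceptor of helper T cells, was at 4.15, 3.47, and 11.7 CPM before and 5.1, 12.9, and 3.28 CPM late and overlapped.

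LAT and SH2D1A, signaling adaptors of T cells, were higher in all 3 tumors like CD3D. In all, 12 of the 29 T cell genes were higher in all 3 tumors, beside 14.3% of all genes. Other signaling genes of the list were divided. LCK, SIT1, and CAMK4 were higher in all 3 tumors, by 1.01, 1.16, and 1.11 log2 in BM. TRAT1 and THEMIS were not, with changes of -0.52 and -1.38 log2 in BM. These other signaling genes were picked after their values were seen. LAT, the membrane scaffold that relays the receptor's signal, was at 0.755, 1.84, and 3.22 CPM before and 9.77, 19.1, and 6.07 CPM late, a log2 fold change of 2.7 (SE 0.84), and it was the 1 T cell gene of 29 that DESeq2 called higher, beside 0.22% of all genes. SH2D1A, the adaptor SAP of SLAM receptors, was at 1.32, 1.33, and 1.84 CPM before and 18.8, 16.2, and 2.97 CPM late. Both were separated between the groups. TCF7, a transcription factor of naive and memory-like T cells, went the other way, from 23.2, 26, and 37.7 CPM to 19.1, 18.1, and 14.5 CPM, and was the 1 T cell gene of 29 whose late values all lay below those before treatment, beside 3.88% of all genes. CD2 and CD5, adhesion and inhibitory receptors of T cells, changed by 1.75, -0.063, and 1.79 log2 and 0.93, 1.89, and -1.26 log2.

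**Figure D3:**
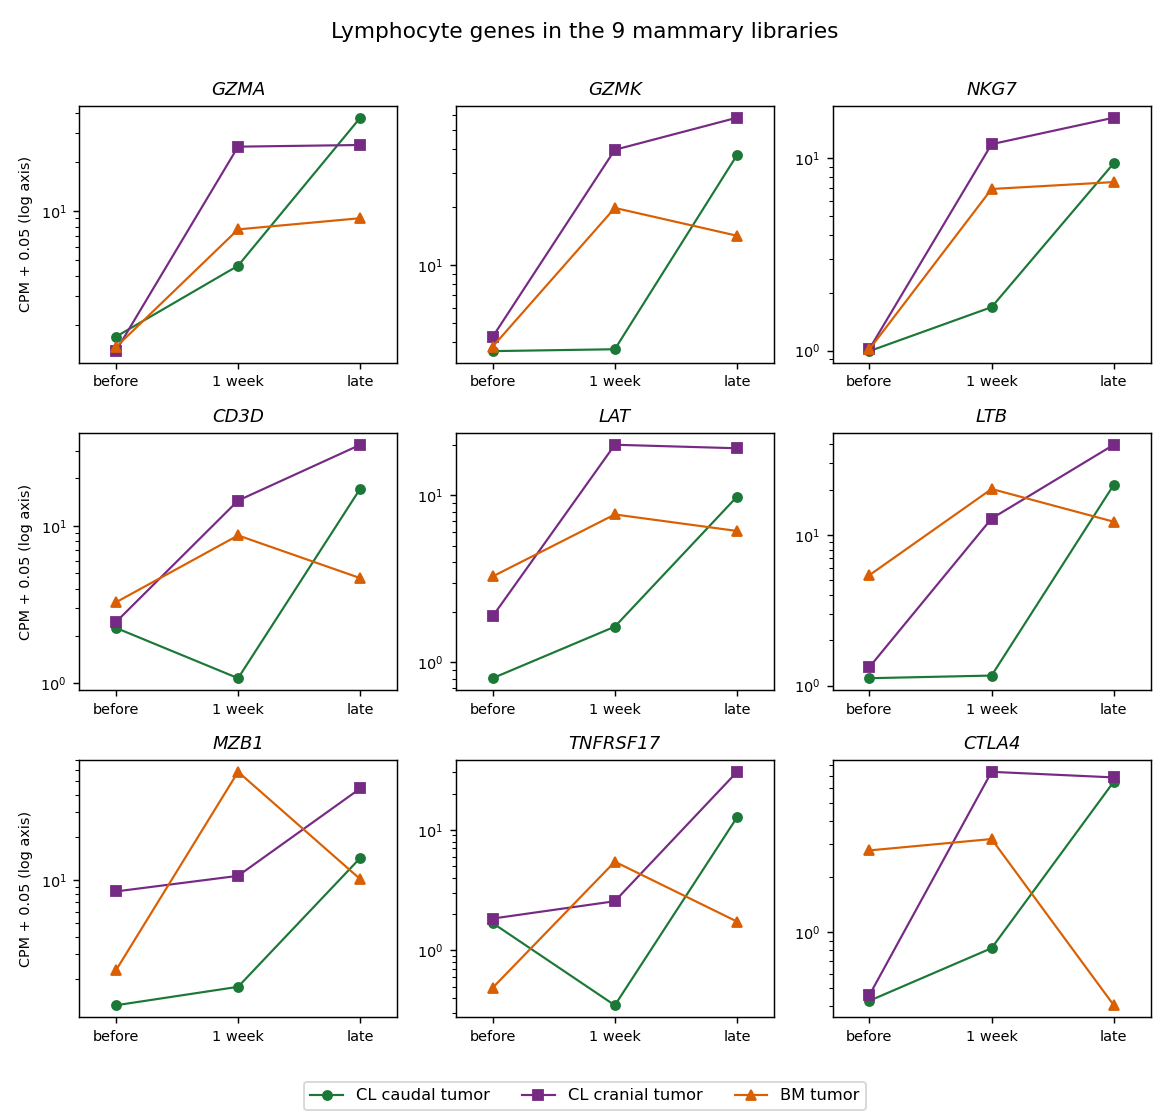
CPM (plus 0.05, log axis) of 9 lymphocyte genes before treatment, at 1 week, and late, with 1 line per tumor. Late GZMA, GZMK, and NKG7 lie above every library before treatment in the 3 tumors, whereas CTLA4 ends at 0.354 CPM in BM against 6.47 in CL caudal and 6.82 in CL cranial.

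Checkpoint and regulatory T cell genes showed the same division. Their medians were 1.58, 2.08, and -0.99 log2 over 18 genes. CTLA4, an inhibitory receptor of activated and regulatory T cells, was at 0.378, 0.408, and 2.72 CPM before and 6.47, 6.82, and 0.354 CPM late. It was higher in both CL tumors and lower in BM, and the BM minus CL difference in late change was -7.07 log2 (SE 1.78), with an adjusted p of 0.157. LAG3, another inhibitory receptor, was higher in the 3 tumors, from 1.32, 2.09, and 1.96 CPM to 5.75, 5.8, and 5.05 CPM, without overlap. FOXP3, which defines regulatory T cells, was at 0.0629, 0.408, and 1.05 CPM before and 0, 0.0921, and 0.709 CPM late, and PDCD1, encoding PD-1, was at 0.0629, 0.153, and 0.966 CPM before and 0.0719, 0.184, and 0.797 CPM late. CD274, the ligand PD-L1, changed by 0.62, 1.53, and -2.25 log2.

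B cell and plasma cell genes had positive medians in each tumor. They were 1.27, 1.37, and 0.28 log2 for 19 B cell genes and 1.27, 1.73, and 0.49 log2 for 17 plasma cell genes. The mean of the plasma cell list was 1.16 ± 0.63 (SD, n = 3 tumors), and 10 of its 17 members were higher in all 3 tumors, beside 14.3% of all genes. MZB1, a chaperone for antibody assembly, was at 1.26, 8.27, and 2.25 CPM before and 14.3, 44.3, and 10.1 CPM late, a log2 fold change of 2.88 (SE 1.05). TNFRSF17, the plasma cell survival receptor BCMA, was at 1.64, 1.79, and 0.439 CPM before and 12.6, 30.2, and 1.68 CPM late, a log2 fold change of 3.32 (SE 1.24). MZB1 was separated between the groups, and TNFRSF17 was not, since BM ended near the level at which the CL tumors had started. POU2AF1, a coactivator of antibody genes, changed by 1.81, 3.12, and 1.32 log2, without overlap. JCHAIN, the joining chain of polymeric antibodies, was much more abundant, at 473, 669, and 141 CPM before and 1137, 1385, and 99.4 CPM late, higher in dog CL and lower in BM. Of the defining B cell genes, CD79A, a signaling chain of the B cell receptor, was at 0.126, 1.12, and 3.16 CPM before and 1.87, 5.99, and 5.63 CPM late, and MS4A1, encoding CD20, at 0, 0.102, and 1.55 CPM and 1.15, 2.21, and 0.354 CPM.

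Genes that organise lymphoid tissue were higher late in dog CL, and in BM their median was near 0. The medians were 1.17, 1.73, and 0.071 log2 over 14 genes, and in BM the sign turned to -0.0854 after subtraction for gene density and span and to -0.123 without the filter on low counts. LTB, the lymphotoxin that drives lymph node formation, was at 1.07, 1.28, and 5.36 CPM before and 21.5, 39.6, and 12.2 CPM late, a log2 fold change of 3.75 (SE 1), without overlap. CXCL13, the chemokine that attracts B cells to follicles, was at 0.315, 1.02, and 1.2 CPM before and 10.3, 14.7, and 0.842 CPM late, a log2 fold change of 3.6 (SE 1.42). It changed by 4.66, 3.73, and -0.47 log2. CCL19 and CCL21, which attract T cells and dendritic cells, changed by 0.4, 2.43, and 0.013 log2 and 2.64, 0.76, and 1.38 log2, and CCL21 in BM was at 47.2 CPM before, 1035 at 1 week, and 123 late.

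Myeloid genes followed another pattern. The 24 macrophage genes had medians of 0.15, 0.59, and 2.04 log2, with the largest value in BM, where 22 of 24 were higher. After subtraction for gene density and span the medians were -0.019, 0.5, and 1.66 log2, so the sign in CL caudal turned. GPNMB, a glycoprotein of lipid-laden and tissue-remodeling macrophages, was at 62.9, 40.8, and 45.1 CPM before and 135, 220.4, and 515 CPM late, a log2 fold change of 2.32 (SE 0.85). TREM2, a lipid-sensing receptor of the same cells, was at 1.89, 1.68, and 0.995 CPM before and 3.23, 6.73, and 8.86 CPM late. The groups did not overlap for either. The 3 chains of C1q, which form 1 complex, did not move alike in CL cranial, where C1QA changed by 1.55 log2, C1QB by -0.31 log2, and C1QC by -0.26 log2. Genes of gene-dense regions changed by -0.68 log2 relative to gene-sparse ones in that tumor, and a link of this shift to the C1q chains was not tested. CD68, a lysosomal macrophage marker, was at 3.34, 16.6, and 7.08 CPM before and 2.44, 6.36, and 126 CPM late.

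Dendritic cell genes were above 0 in each tumor, with medians of 1, 1.32, and 0.84 log2 over 14 genes. BATF3, a transcription factor of cross-presenting dendritic cells, was at 8.43, 1.58, and 2.75 CPM before and 15.3, 17.3, and 6.11 CPM late. FLT3, the growth factor receptor of these cells, was at 11.3, 6.79, and 7.52 CPM before and 23.1, 17.2, and 8.28 CPM late, and both overlapped between the groups. CD1C, a lipid-presenting molecule of dendritic cells, was too low to be tested. Neutrophil genes had medians of -1.16, 0.88, and -1.31 log2, and S100A8, an abundant calcium-binding protein of neutrophils, was at 1624, 14.1, and 13.1 CPM before and 671, 146, and 2.17 CPM late. It was lower late in CL caudal and BM and higher in CL cranial. LTF, lactoferrin, which neutrophils and milk-secreting epithelium both make, was lower in the 3 tumors, from 107, 4247, and 681 CPM to 55, 782, and 94.4 CPM, a log2 fold change of -2.1 (SE 0.58).

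Mast cell genes differed between tumors, with medians of -0.019, -0.97, and 1.88 log2 over 10 genes. CPA3, the mast cell carboxypeptidase, was at 0.629, 2.4, and 1.7 CPM before and 1.94, 0.461, and 18.6 CPM late. MS4A2, the beta chain of the high-affinity IgE receptor, was higher in each tumor, from 1.57, 0.459, and 1.17 CPM to 4.38, 4.05, and 8.19 CPM. IL1RL1, the receptor for interleukin 33 that mast cells and stromal cells carry, was lower in each tumor, from 195, 199, and 103 CPM to 67.3, 66.9, and 5.01 CPM, a log2 fold change of -2.63 (SE 0.71). Neither MS4A2 nor IL1RL1 overlapped between the groups.

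Antigen presentation genes were higher late by a similar amount in the 3 tumors for class II. The median of 16 MHC class II genes was 0.8, 1.17, and 1.1 log2, a mean of 1.02 ± 0.2 (SD, n = 3 tumors), and 9 of the 16 were higher in all 3, beside 14.3% of all genes. With the trend of gene density and span subtracted, the class II medians were 0.67, 1.1, and 0.73 log2, and 8 were higher in all 3. HLA-DRB1, the beta chain of the DR molecule, was at 1680.4, 702, and 414 CPM before and 4062, 4004, and 912 CPM late. DLA-DRA, its alpha chain, was at 1828, 703, and 386 CPM before and 2837, 1445, and 751 CPM late. CD74, the invariant chain that class II molecules need to reach their compartment, was instead at 81.5, 1179, and 708 CPM before and 104, 172, and 1247 CPM late, so that in CL cranial it changed by -2.78 log2 whereas the DR chains were higher. Reads of the DLA genes can be shared between near-identical copies, and their counts are uncertain. Class I genes had medians of 0.52, 1.04, and 0.17 log2 over 17 genes, with 8 higher in all 3 tumors. After subtraction for gene density and span the medians were 0.61, 1.14, and -0.083 log2, the sign in BM turned, and 4 were higher in all 3. B2M, the light chain of class I molecules, was at 3204, 1017, and 1027 CPM before and 6092, 6404, and 1701 CPM late.

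Interferon-stimulated genes differed between tumors late, with 32, 23, and 15 of 38 higher than before, where 48.2%, 46.7%, and 48.1% of all genes were. Their medians over 38 genes were 0.49, 0.29, and -0.27 log2 late and 0.82, 2.39, and 1.2 log2 at 1 week, 2 comparisons that share the libraries before treatment. Late minus 1 week, which does not rest on those libraries, the medians were -0.41, -2, and -1.58 log2. MX1, an antiviral GTPase, was at 43, 63.8, and 162 CPM before, 352, 533, and 547 CPM at 1 week, and 80.6, 80.8, and 193 CPM late. OAS1, which senses viral double-stranded RNA, was at 43.5, 53.1, and 66.4 CPM, 149, 224, and 177 CPM, and 65.4, 51, and 119 CPM in the same order. ISG15, a ubiquitin-like protein, was at 443, 45.7, and 86 CPM before, 212, 356, and 206 CPM at 1 week, and 925, 547, and 102 CPM late. ISG15 and IFI6, an interferon-induced membrane protein, were the 2 of the 38 genes with a higher value late than at 1 week in both CL tumors, and IFI6 was picked after its values were seen.

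The lymphocyte lists, in contrast, were not uniformly lower late than at 1 week. Late minus 1 week, the medians were 1.06, -1.07, and -0.98 log2 for T cells, 1.07, -0.53, and -0.85 log2 for cytotoxic and NK cells, and 1.35, 1.69, and -1.39 log2 for plasma cells. In CL caudal they were higher late than at 1 week for the 3 lists, in BM lower, and in CL cranial lower for T cells and cytotoxic cells and higher for plasma cells. For GZMA the 1-week values were 4.55, 24.7, and 7.63 CPM and for TNFRSF17 0.3, 2.51, and 5.39 CPM, which places both genes of CL caudal higher late than at 1 week.

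Stroma set BM apart from dog CL. The median of 34 fibroblast genes was -0.1, -0.63, and 3.49 log2, and that of 26 genes for fibrillar collagens and their processing -0.13, -1.4, and 2.72 log2. In BM 33 of the 34 fibroblast genes were higher late and 32 of them by at least 1 log2, where 21.7% of all genes were. The BM minus CL difference was called for 0 of 19975 genes (0.0%) after adjustment in edgeR, with a smallest adjusted p of 0.0895, and DESeq2 called 436 genes higher (2.47%) and 771 lower (4.37%) of 17651 with an adjusted p. At an unadjusted p under 0.05, 24 of the 34 fibroblast genes and 17 of the 26 collagen genes were higher in BM, beside 5.75% of all genes. This fit takes its spread from the 2 tumors of dog CL.

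Collagen I and III made up 7.29% of all counts in BM late and 0.0957% before. COL1A1, the alpha 1 chain of type I collagen, was at 109, 3239, and 196 CPM before and 222, 2321, and 42333 CPM late. COL1A2, its partner chain, was at 264, 4295, and 233 CPM before and 297, 1239, and 36518 CPM late. COL1A1 changed by 1.03, -0.48, and 7.76 log2, and its BM minus CL difference was 7.45 log2 (SE 1.33), with an adjusted p of 0.108. COL3A1, the type III chain of early scar and loose stroma, was at 374, 4789.9, and 347 CPM before and 369.9, 1144, and 17860.2 CPM late. In CL cranial the 3 genes were lower late, at -0.48, -1.79, and -2.07 log2. LUM and DCN, small proteoglycans that bind collagen fibrils, changed by -0.66, -0.39, and 4.93 log2 and 0.19, -1.1, and 3.73 log2.

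A few stromal genes were higher in all 3 tumors. CTHRC1, a secreted protein of activated fibroblasts, was at 7.8, 7.5, and 28.7 CPM before and 20, 37.5, and 1713 CPM late, a log2 fold change of 3.32 (SE 1.09), and DESeq2 called it. ASPN, the proteoglycan asporin, was at 18.6, 67.7, and 26.2 CPM before and 69.8, 102, and 1238 CPM late. S100A4, a calcium-binding protein of fibroblasts and leukocytes, was at 92.6, 47.2, and 50.4 CPM before and 229, 528, and 298 CPM late. The groups overlapped for CTHRC1 and did not for ASPN and S100A4. FAP, the fibroblast activation protein, and PDGFRB, a receptor of fibroblasts and pericytes, changed by -0.19, -0.64, and 4.03 log2 and 1.01, -3.25, and 4.5 log2, so that PDGFRB had opposite signs in the CL tumors.

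Genes of matrix degradation were higher late in BM, with medians of -0.13, -0.43, and 2.25 log2 over 21 genes. MMP9, a gelatinase of neutrophils, macrophages, and osteoclasts, was at 3.21, 107, and 5.71 CPM before and 4.02, 8.2, and 1478 CPM late. CTSK, the collagen-cleaving protease cathepsin K of osteoclasts and fibroblasts, was at 223, 365, and 82.1 CPM before and 321, 447, and 2739 CPM late. At 1 week in BM, MMP9 had been at 4.15 CPM and CTSK at 404. TIMP1, an inhibitor of matrix metalloproteinases, was at 15, 49.9, and 46.2 CPM before and 9.27, 18, and 565 CPM late, and MMP14, a membrane-bound collagenase, at 29.2, 441, and 465 CPM and 26.7, 58.7, and 2587 CPM.

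**Figure D4:**
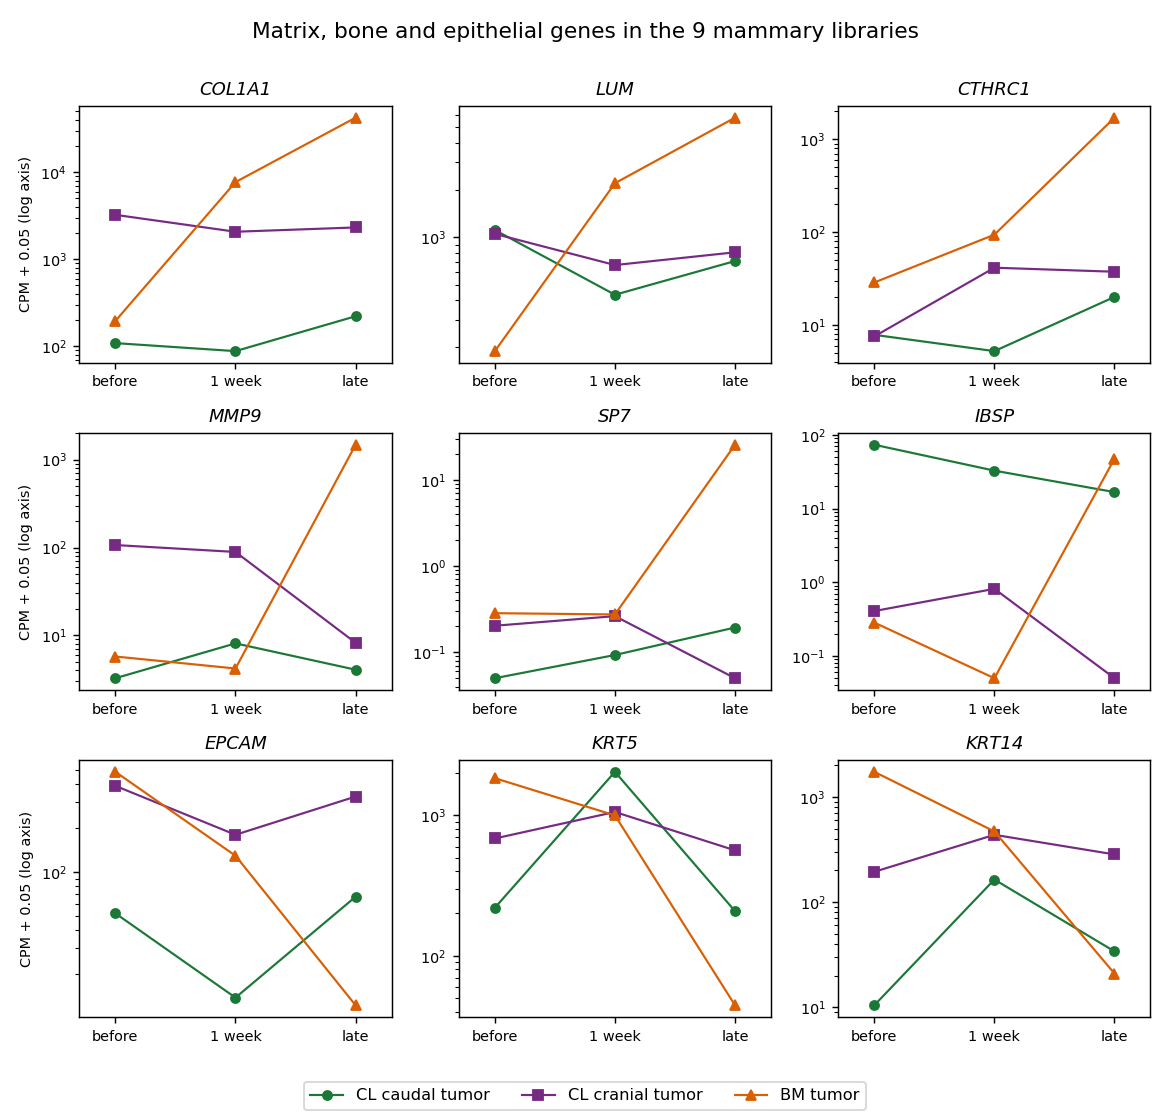
CPM (plus 0.05, log axis) of 9 matrix, bone, and epithelial genes before treatment, at 1 week, and late, with 1 line per tumor. In BM the collagen and bone genes are highest late, with COL1A1 at 42333 CPM, and EPCAM, KRT5, and KRT14 are lowest late.

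Bone genes divided in BM. The 17 bone formation genes tested had medians of -0.49, -0.28, and 1 log2, and 9 of the 17 were higher by at least 1 log2 in BM, where 21.7% of all genes were. SP7, the transcription factor osterix of osteoblasts, failed the filter on low counts, with 576 counts in BM late (25.5 CPM) and at most 8 in each of the other 5 libraries. IBSP, bone sialoprotein, was at 73.3, 0.357, and 0.234 CPM before and 16.7, 0, and 47.3 CPM late. ALPL, the alkaline phosphatase of mineralizing cells, was at 9.44, 73.3, and 5.06 CPM before and 6.11, 4.88, and 164 CPM late. BGLAP, the late osteoblast protein osteocalcin, was at 90.5, 7.25, and 3.25 CPM before and 74.3, 6.26, and 2.66 CPM late and did not follow them. RUNX2, the early osteoblast factor, was at 77.3, 62.9, and 86.2 CPM before and 81.5, 124, and 173 CPM late. Of the cartilage genes, SOX9, their master factor, was lower in each tumor, from 0.566, 13.8, and 38.5 CPM to 0.144, 1.47, and 5.58 CPM, a log2 fold change of -2.77 (SE 0.91), and the list had medians of -0.57, -0.72, and -1.44 log2.

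Genes that appeared in 1 tumor were examined as those with at most 3 counts before treatment and at least 1 CPM late. There were 89 in CL caudal, 125 in CL cranial, and 98 in BM, and 0 that met the rule in all 3 tumors. Without CL caudal 2 genes met it, without CL cranial 0, and without BM 7. The genes named here were picked from the most abundant ones after their values were seen. In BM they included H19, an imprinted noncoding RNA of fetal tissue, with 0 counts before and 2020 late. OCSTAMP, which osteoclasts need to fuse, had 2 and then 1075 counts, and OSCAR, an osteoclast receptor, had 3 and then 275. LRRC15, a membrane protein of collagen-producing fibroblasts, had 0 and then 136 counts. In CL cranial CSN1S1, the milk protein alpha-S1 casein, had 2 and then 327 counts, the cytotoxic protein GNLY (granulysin) 2 and then 35, and TIGIT, an inhibitory receptor of T and NK cells, 2 and then 34. In CL caudal SPIB, a transcription factor of B cells, had 2 and then 53 counts.

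Epithelial genes were lower late mainly in BM, and basal genes also in CL cranial. The medians were 0.071, -0.59, and -3.84 log2 for 35 genes of simple and luminal epithelium and 0.33, -1.37, and -5.08 log2 for 21 genes of basal epithelium. In BM 32 of the 35 and 20 of the 21 were lower by at least 1 log2, where 29.2% of all genes were. In CL cranial 14 of the 35 and 14 of the 21 were lower by as much, beside 27.9% of all genes. In CL caudal 0 of the 35 and 1 of the 21 were, beside 7.83%. At an unadjusted p under 0.05 the BM minus CL difference was below 0 for 24 of the 35 and 15 of the 21, beside 9.6% of all genes. EPCAM, an adhesion molecule of epithelial cells, was at 51.9, 388, and 484 CPM before and 67.5, 328, and 12.1 CPM late, and its BM minus CL difference was -5.42 log2 (SE 0.96), with an adjusted p of 0.108. CDH1, the E-cadherin of epithelial junctions, was at 185, 1044, and 566 CPM before and 184, 459, and 26.8 CPM late. Both genes in CL caudal were within 0.4 log2 of their starting level.

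Keratins told the tumors apart further. KRT19, a keratin of simple epithelium, was at 27.1, 730.2, and 969 CPM before and 56.8, 1631, and 31.2 CPM late, higher in both CL tumors and lower in BM. KRT5 and KRT14, the keratin pair of basal and myoepithelial cells, were at 219.6, 684, and 1839.6 CPM and 10.4, 194, and 1735 CPM before. Late they were at 208, 563, and 44.3 CPM and 33.9, 284, and 20.9 CPM. In BM the pair changed by -5.37 and -6.37 log2, whereas KRT14 was higher in both CL tumors. TP63, the basal cell factor p63, was at 198, 39.2, and 159.7 CPM before and 176, 40.1, and 13.7 CPM late. DSG3, a desmosomal cadherin, was lower in each tumor and did not overlap between the groups, at 33.5, 34.7, and 248 CPM before and 13.9, 12, and 1.06 CPM late, a log2 fold change of -3.37 (SE 1.26). COL17A1, a hemidesmosome collagen, was at 28.2, 132, and 244 CPM before and 32.2, 8.66, and 4.07 CPM late, a log2 fold change of -3.61 (SE 1.06).

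Mesenchymal genes were higher late in BM, with medians of -0.036, -0.43, and 2.19 log2 over 21 genes. VIM, the mesenchymal intermediate filament vimentin, was at 6359, 1601, and 1070.1 CPM before and 7549, 1963, and 9481 CPM late. SNAI1 and SNAI2, repressors of E-cadherin, changed by -0.19, 0.49, and 2.81 log2 and -1.54, -2.78, and 1.91 log2. ZEB2, another repressor of that kind, which leukocytes also express, was higher in each tumor, from 222, 54.9, and 36.4 CPM to 342, 332, and 115 CPM, a log2 fold change of 1.52 (SE 0.6).

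Many genes ended at the detection floor, at most 3 counts late, after at least 1 CPM before. They numbered 75 in CL caudal, 606 in CL cranial, and 806 in BM, and 1 gene, SYCP2L, a protein of the meiotic synaptonemal complex, met the rule in all 3 tumors, with 1.32, 1.63, and 2.14 CPM before. Without CL caudal the count over the other tumors was 72, without CL cranial 7, and without BM 3. The genes named next were picked from the most abundant ones after their values were seen. In BM they included IRX4, a homeobox factor, with 5200 counts before and 1 late, FAM83B, a membrane-associated adaptor, with 3147 and 1, and DSG1, a desmosomal cadherin of stratified epithelium, with 876 and 0. In CL cranial KLK2, a kallikrein protease, had 3025 counts before and 0 late, and GH1, growth hormone, which canine mammary epithelium is known to make under progestins, had 712 and 3.

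Genes of mammary secretion and hormone response moved apart in CL cranial. PIGR, the receptor that carries antibodies across epithelium, was at 18.7, 1708, and 87.9 CPM before and 8.26, 33.4, and 15.8 CPM late, a log2 fold change of -3.41 (SE 0.95). WNT4, a progesterone-induced ligand, was at 0.503, 164, and 10.7 CPM before and 0.287, 1.2, and 0.753 CPM late. PGR, the progesterone receptor, was at 3.08, 50.4, and 2.93 CPM before and 7.11, 151, and 2.97 CPM late, and PRLR, the prolactin receptor, at 15.8, 196, and 11.1 CPM and 12.4, 429, and 2.79 CPM. In CL cranial PIGR and WNT4 were thus lower late and both receptors higher. LALBA, the milk protein alpha-lactalbumin, was at 1.13, 51.4, and 0.0293 CPM before and 5.68, 235, and 0 CPM late, and CSN2, beta-casein, at 0.566, 1.07, and 0.0585 CPM and 2.8, 7.55, and 0 CPM. ESR1, the estrogen receptor, changed by -0.9, 1.61, and -1.19 log2, and ERBB2, the HER2 receptor, by -0.15, -3.4, and -1.67 log2. The list medians were -0.18, -0.74, and -0.54 log2 for 18 milk and secretory genes and -0.19, -1.03, and -1.03 log2 for 23 receptor genes.

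Smooth muscle and myoepithelial genes had medians of 0.16, -1.02, and -0.2 log2 over 21 genes. MYH11, the smooth muscle myosin heavy chain, was at 45.5, 665, and 431 CPM before and 54, 44.4, and 13.5 CPM late, a log2 fold change of -3.36 (SE 1.03), whereas TAGLN, the actin-binding transgelin, was at 462, 349, and 712 CPM before and 600.5, 557, and 804 CPM late. Endothelial genes had medians of 0.33, -0.17, and 0.67 log2 over 28 genes late and 1.32, 1.27, and 2.83 log2 at 1 week. VWF, the platelet-binding von Willebrand factor of endothelium, was at 7.43, 23.1, and 42.8 CPM before, 26.2, 144, and 689 CPM at 1 week, and 6.47, 11.1, and 67 CPM late, so it was lower late than at 1 week in each tumor.

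**Figure D5:**
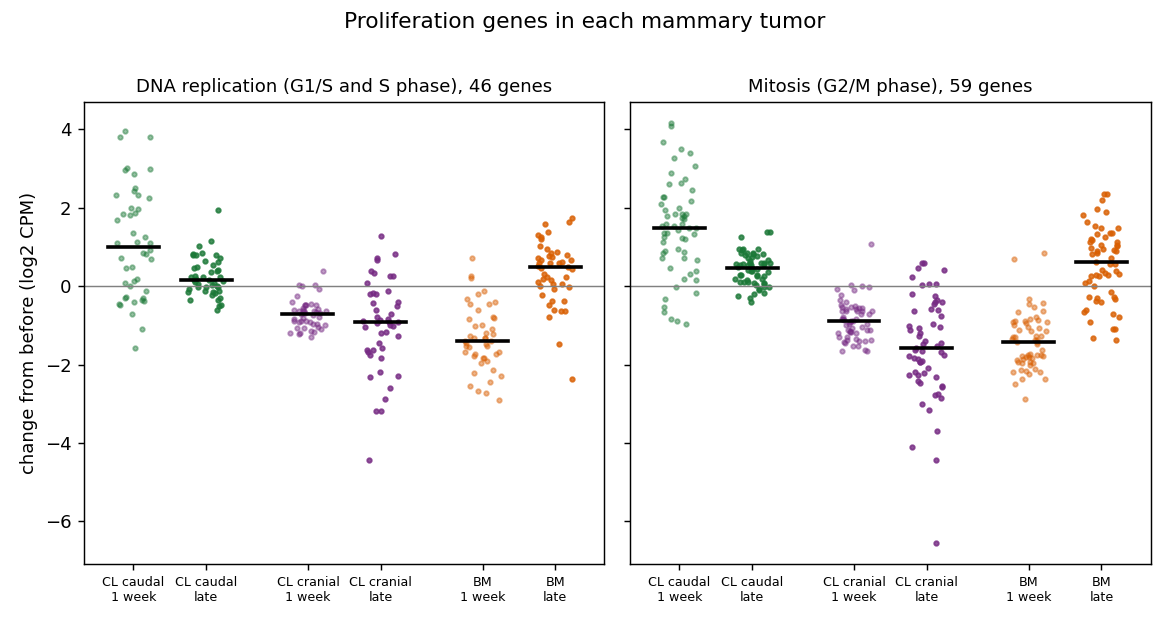
Change from before treatment (log2 CPM) of the tested DNA replication genes (left, 46 genes) and mitosis genes (right, 59 genes) at 1 week and late in each tumor, with 1 point per gene and a bar at the median. Late medians lie above 0 in CL caudal and BM and below 0 in CL cranial, where the mitosis median is -1.57.

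Proliferation genes had no shared late direction. The 59 mitosis genes had medians of 0.47, -1.57, and 0.62 log2, with 50, 8, and 43 of them higher late, and the 46 DNA replication genes 0.15, -0.92, and 0.48 log2, with 30, 9, and 33 higher. At 1 week the mitosis medians were 1.49, -0.88, and -1.43 log2, and late minus 1 week they were -1.06, -0.84, and 1.97 log2. BM was thus below its starting level at 1 week and above it late, CL caudal above it at both times, and CL cranial below it at both. After subtraction for gene density and span the late mitosis medians were 0.47, -1.32, and 0.69 log2.

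MKI67, the antigen Ki-67 of cycling cells, was at 2.71, 57.6, and 69.7 CPM before, 23.1, 31.2, and 26.8 CPM at 1 week, and 4.1, 2.58, and 55.1 CPM late. It changed by -4.43 log2 in CL cranial and differed by less than 1 log2 in the other tumors. CCNB1, cyclin B1, was at 3.84, 18.1, and 12.6 CPM before and 7.47, 5.71, and 58.4 CPM late, higher in CL caudal and BM. TOP2A, the topoisomerase of dividing cells, was at 36, 126, and 279 CPM before and 54, 33, and 227 CPM late. CDK1, the mitotic kinase, changed by 0.82, 0.056, and 1.03 log2, so it did not follow MKI67 in CL cranial. MCM2 and PCNA, which act at the replication fork, changed by -0.17, -3.19, and 0.87 log2 and -0.035, -0.84, and 0.32 log2. MAD2L1, a spindle checkpoint protein, and SPC24, a kinetochore protein, were 2 mitosis genes of 59 whose late values lay above those before treatment, beside 4.04% of all genes, with changes of 0.92, 0.42, and 1.89 log2 and 1.25, 0.59, and 2.34 log2.

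Inhibitors of the cell cycle had medians of 0.091, 0.42, and -0.33 log2 over 20 genes. CDKN2A, which encodes p16, was higher in each tumor, from 26.6, 2.35, and 76.7 CPM to 34.9, 17, and 324 CPM, a log2 fold change of 1.75 (SE 0.71), and CDKN1A, which encodes p21, was at 17.1, 31.2, and 112 CPM before and 41.6, 76.9, and 50.8 CPM late. Immediate early and heat shock genes, which rise with stress and sample handling, had medians of 0.15, 0.9, and 0.2 log2 over 27 genes, and after subtraction for gene density and span -0.053, 0.46, and -0.22 log2, so the signs in CL caudal and BM turned. JUN, one of them, was at 58.2, 33.9, and 71.6 CPM before and 80.4, 198, and 199 CPM late, without overlap. Ribosomal protein genes had medians of -0.25, 1.08, and 1.16 log2 over 55 genes, and their share of counts was 10%, 5.18%, and 4.32% before and 9.14%, 9.46%, and 6.06% late.

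Lists of other tissues that a biopsy can include were examined as well. Skeletal muscle genes summed to 39.1, 72.4, and 132 CPM before and 40.5, 26.6, and 43.9 CPM late, and their tested members had medians of 0.08, -0.99, and -0.49 log2. Red blood cell genes summed to 4.97, 5.82, and 6.09 CPM before and 9.7, 11.7, and 5.98 CPM late, with SLC4A1 at 0 counts in all 6 libraries. Adipocyte genes had medians of -0.23, -0.046, and 0.34 log2 over 15 genes, and the sign in CL cranial turned to 0.554 without the filter on low counts. FABP4, the fatty acid carrier of adipocytes and some macrophages, was at 35.2, 10.3, and 2.14 CPM before and 8.41, 47.7, and 27.1 CPM late. Squamous and cornified epithelium had medians of 0.12, 0.57, and -4.33 log2 over 17 genes, and nerve and Schwann cell genes -0.028, -1.09, and -1.92 log2 over 12. Skin appendage genes had medians of 0, -1.36, and -1.76 log2 over 9 of 25 genes tested. The part of these tissues in the other results was not tested.

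The late level was compared with the 1-week level directly in the same fit. edgeR called 0 of 19975 genes (0.0%), with a smallest adjusted p of 0.275, 1049 genes higher (5.25%) and 2026 lower (10.1%) at an unadjusted p under 0.05, and DESeq2 called 208 higher (1.04%) and 744 lower (3.72%). TGM2, the tissue transglutaminase, was at 1.32, 3.67, and 20.7 CPM before, 11.5, 80, and 199 CPM at 1 week, and 1.44, 2.12, and 22.4 CPM late, with a late minus 1 week difference of -3.79 log2 (SE 0.55). ZBP1, a sensor of Z-form nucleic acid induced by interferon, was at 3.21, 14.1, and 24.6 CPM, 20.5, 151, and 107 CPM, and 0.431, 7.28, and 19.8 CPM, with a late minus 1 week difference of -3.94 log2 (SE 0.65). Both genes were lower late than at 1 week in each tumor and close to or below their starting level. KRT80, a keratin of differentiating epithelium, and PRG4, the lubricant proteoglycan 4, were also lower, with a late minus 1 week difference of -5.45 log2 (SE 0.82) and a late minus 1 week difference of -4.05 log2 (SE 0.65). Genes higher late than at 1 week included LALBA, with a late minus 1 week difference of 4.71 log2 (SE 0.82), PRADC1, a secreted glycoprotein, with a late minus 1 week difference of 2.22 log2 (SE 0.42), and MAD2L1, with a late minus 1 week difference of 2.21 log2 (SE 0.44).

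The test of BM against dog CL gave its smallest p-values to the genes named here, each with an adjusted p of 0.0895. TNN, the matrix protein tenascin-N of bone and periosteum, was at 2.01, 3.98, and 0.878 CPM before and 1.29, 8.75, and 513 CPM late, and its BM minus CL difference was 8.9 log2 (SE 1.1), with an adjusted p of 0.0895. PTN, the growth factor pleiotrophin, was at 108, 20.9, and 3.25 CPM before and 29, 4.97, and 679 CPM late, with 9.72 log2 (SE 1.21). LRRC17, a leucine-rich repeat protein, and TNC, tenascin-C, were at 2.23, 9.21, and 217 CPM and 48.9, 36.9, and 1272 CPM late. Each of the 4 genes was higher in BM late than in any other of the 6 libraries. On the other side, FAM83B was at 5.66, 19.2, and 92.1 CPM before and 7.83, 25, and 0.0443 CPM late, with -11.26 log2 (SE 1.26), and OLFM4, a glycoprotein of secretory epithelium, was at 6.61, 87.8, and 76.8 CPM before and 13.5, 553, and 0.177 CPM late, with -10.58 log2 (SE 1.19). KRT13 and KRT79, keratins of stratified epithelium, were likewise at 0.532 and 0 CPM in BM late after 103 and 59.1 CPM before.

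Against the sarcoma of the other dog, edgeR called 0 of 27888 genes (0.0%) for a late change that differed from that of the mammary tumors, with a smallest adjusted p of 1.0. At an unadjusted p under 0.05, 234 genes (0.839%) had the higher change in the mammary tumors and 488 (1.75%) the lower. The cytotoxic and NK list had a median change of 0.38 log2 in the sarcoma, and T cells 0.15 log2, each without a replicate tumor. FCRLA, a B cell protein, was among the 5 genes of smallest p with the higher change in the mammary tumors, with a mammary minus sarcoma difference of 5.56 log2 (SE 1.66, edgeR adjusted p = 1.0).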

How the data were processed

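RNA from 13 canine tumor biopsies had been sequenced, and the deposited table holds counts per gene symbol. According to the study's methods the authors aligned reads to CanFam4.0 in Strand NGS, and the submitters' processing notes name TMM normalization in edgeR. The counting rule is not given in the sources used here. These raw counts were used as deposited. Whether biopsies of 1 tumor at different times hold the same region is unknown. The p-values between times rest on how the changes differ among 3 mammary tumors, 2 of them from dog CL. They do not measure the spread between dogs.

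The 9 mammary libraries were fitted in edgeR 4.0.16 (R 4.3.3) with TMM factors, filterByExpr (minimum count 10), terms for time and tumor, and the quasi-likelihood test with Benjamini-Hochberg adjustment at 0.05. A fit over all 13 libraries gave the contrast with the sarcoma. Changes within a tumor are differences of log2 CPM with a prior count of 2. Libraries were paired by the tumor their labels name, and deviations from the group means correlated at 0.194 to 0.719 (mean 0.459) within a tumor and at -0.526 to 0.261 (mean -0.242) between tumors, so that the ranges overlapped. Alternatives were fits without the block, over all 13 libraries, over the 6 late and before libraries, with the tumors of dog CL summed, without the filter, with RLE factors, with DESeq2 1.42.0, with a prior count of 0.5, with a floor of 10 counts, and without each tumor. The subtraction of the trend with gene density and span was added after the data had been seen. The procedure was run on simulated counts as a check of the code, and no result here rests on it. Gene positions came from RefSeq (UU_Cfam_GSD_1.0), which matched 98.0% of 43427 symbols.

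The gene lists and comparisons were chosen with earlier results of these data known. Genes named are the 5 per direction of smallest p that moved alike in all 3 tumors, the defining markers of each list, per list up to 2 members per direction with the largest mean change among those moving alike, genes newly detected or lost in all 3 tumors, and up to 5 per direction by p in the other contrasts, without symbols starting in LOC. Exceptions are said to be chosen after their values were seen.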

Additional observations from a re-analysis of the deposited data

Results flagged for a closer look

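Of 36 gene lists, 13 had a late median change of one sign in both tumors of dog CL and of the opposite sign in BM. The difference was not tested at the level of the list, since BM is a single tumor. The BM medians on the negative side were -0.206 log2 for T cells, -0.985 for checkpoint and regulatory T cell genes, -0.266 for interferon-stimulated genes, -4.33 for squamous and cornified epithelium, -0.331 for cell cycle inhibitors, and -0.404 for red blood cells, where both CL tumors were above 0. On the positive side they were 1.88 for mast cells, 2.72 for fibrillar collagens, 3.49 for fibroblasts, 2.25 for matrix degradation, 0.34 for adipocytes, 1.0 for bone formation, and 2.19 for mesenchymal genes, where both CL tumors were below 0. For fibroblasts and mesenchymal genes the CL caudal median turned to 0.0432 and 0.0307 after subtraction for gene density and span, and for adipocytes the CL cranial median turned to 0.0566.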

How the results depend on the processing

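The counts of called genes depended on the test. Without the filter on low counts edgeR called 7 genes late against before, 110 late against 1 week, and 1202 for BM against dog CL, where it called 0 with the filter, and DESeq2 called 186, 952, and 1207. In a fit without the block for tumor pairing it called 0 genes late against before, with 446 higher and 625 lower at an unadjusted p under 0.05, and 0 late against 1 week. Of the 168 genes higher by at least 1 log2 in all 3 tumors, 111 were protein coding with coordinates, and the count was 85 after subtraction for gene density and span. Of the 427 lower genes 202 were protein coding with coordinates, and the count was again 202 after it. Without the filter, 654 genes of all those tested were lower by at least 1 log2 in all 3 tumors, in place of 427. Leaving out 1 tumor gave 359 to 1172 higher and 792 to 2081 lower genes, fewer tumors being required. With a floor of 10 counts 1 gene was newly detected and 19 were lost, and leaving out 1 tumor gave 0 to 7 and 3 to 72. The mean of the milk and secretory list was -0.803 with a prior count of 0.5. Each of the 10 genes of smallest p passed the threshold in DESeq2, and GZMA, PITPNM3, ADGRD2, C12H6orf132, and PAPLN also passed in edgeR without the filter. Of the medians in single tumors, some near 0 changed sign, such as that of adipocytes in CL cranial, from -0.0457 to 0.554 without the filter. Means over the 3 tumors changed sign when 1 tumor was left out. Without BM they went from 0.92 to -0.366 for fibroblasts, 0.395 to -0.767 for collagens, 0.562 to -0.279 for matrix degradation, 0.577 to -0.231 for mesenchymal genes, 0.294 to -0.497 for mast cells, 0.02 to -0.139 for adipocytes, 0.079 to -0.383 for bone formation, and -1.211 to 0.346 for squamous epithelium. Without CL cranial they went from -0.162 to 0.543 for mitosis, -0.095 to 0.316 for DNA replication, and 0.06 to -0.12 for cell cycle inhibitors. Without the filter they went from 0.079 to -0.024 for bone formation and 0.297 to -0.136 for red blood cells. The number of tumors, 3 from 2 dogs, limits the precision of every value, and the depth limits genes near the floor of 3 counts.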
